A study of Mus musculus with 4 samples.

Results

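The genes described here are 10 that mark dendritic cells or equip them to activate T cells: Flt3, Zbtb46, Batf3, Irf8, Itgax, Fscn1, Cd83, Cd86, Cd80 and Cd40. They were chosen by name, each through the brightest probe set annotated with that single symbol, and all 10 were found among the 19938 genes measured. The series holds 4 microarrays, 1 for each of 4 groups: marrow labelled Bach1 (-/-) given heme, the same genotype given vehicle, Bach1 (+/+) marrow given heme, and the same given vehicle. All donors had the B6 background. Marrow cells were grown with 20 ng/ml of recombinant murine GM-CSF and 10% fetal calf serum, received 40 µM heme (written µm in the labels) or its vehicle of 0.15 M NaCl with 10% NH4OH after 6 days, and gave RNA 24 hours later. The labels do not give the age or number of mice, or whether their marrow was pooled. Floating cells were discarded before RNA was taken, so, by the sample labels, the arrays report the adherent fraction of a mixed culture. The design text of the series conflicts with these labels: it describes GMP and MPP cells sorted out of fetal liver chimeras, names no GM-CSF culture and gives another RNA kit. The sample labels are followed here, and on the arrays all 11 macrophage markers measured reached the median of all values on 1 or both arrays of each pair compared, while all 6 progenitor markers stayed under it on every array. In such bulk RNA, fewer cells of a type and less RNA per cell cannot be told apart.

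Dendritic cells take up antigen, carry it on MHC molecules and activate T cells. Their precursors respond to FLT3 ligand through the receptor encoded by Flt3, and transcription factors such as Zbtb46, Batf3 and Irf8 set or mark the identity of the classical lineages. On maturation the cells extend dendrites with the help of the actin-bundling protein fascin (Fscn1) and raise CD83, CD86, CD80 and CD40 at their surface. Under GM-CSF, marrow cells give rise to macrophages and to dendritic-type cells that carry CD11c, the product of Itgax. Bach1 is a transcriptional repressor whose DNA binding is lost when it binds heme.

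The Bach1 probe set read 204 and 211 on the arrays labelled knockout with heme and with vehicle, against 264 and 212 on the wild-type arrays with heme and with vehicle. The labels do not say which exons were deleted or which ones the probes cover, so that reading alone cannot serve as a check of genotype, which is called labelled knockout throughout. Hmox1, a known target of Bach1 repression, and Spic did differ between the vehicle arrays. Hmox1, the heme oxygenase gene, read 10330 and 9047 in the labelled knockout with heme and vehicle, against 9881 and 1827 in wild type. Spic, a transcription factor gene named in the title of the series, read 679 and 298 against 429 and 17.0. For both, the wild-type vehicle array was the lowest of the 4. Because Spic is a subject of the series itself, its difference is not an independent check of genotype. Array medians lay between 30.4 and 31.4. With 1 array in each group no difference has a replicate check, and neither a p-value nor a replicate error is given. Calls needed a difference of at least 2-fold, and a gene counted only where 1 array of the pair or both had a signal of 30.96 (the median over the whole table), which is termed being at level. Differences are on the log2 scale, heme minus vehicle or labelled knockout minus wild type, and the robust SD of single-gene differences over all genes at level lay between 0.25 and 0.28.

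In the cultures labelled knockout, Cd86 was 2.88-fold lower in vehicle and Cd83 2.25-fold lower with heme than in wild type. These were the only 2 differences among the 40 formed by 10 genes and 4 comparisons that reached 2-fold at level. Itgax was lower with heme in both genotypes, by 1.78-fold in the labelled knockout and 1.81-fold in wild type. Flt3 and Zbtb46 stayed below level on all 4 arrays, and Batf3, Irf8, Cd80 and Cd40, each through its brightest probe set, differed by less than 1.5-fold in every comparison.

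**Figure D1:**
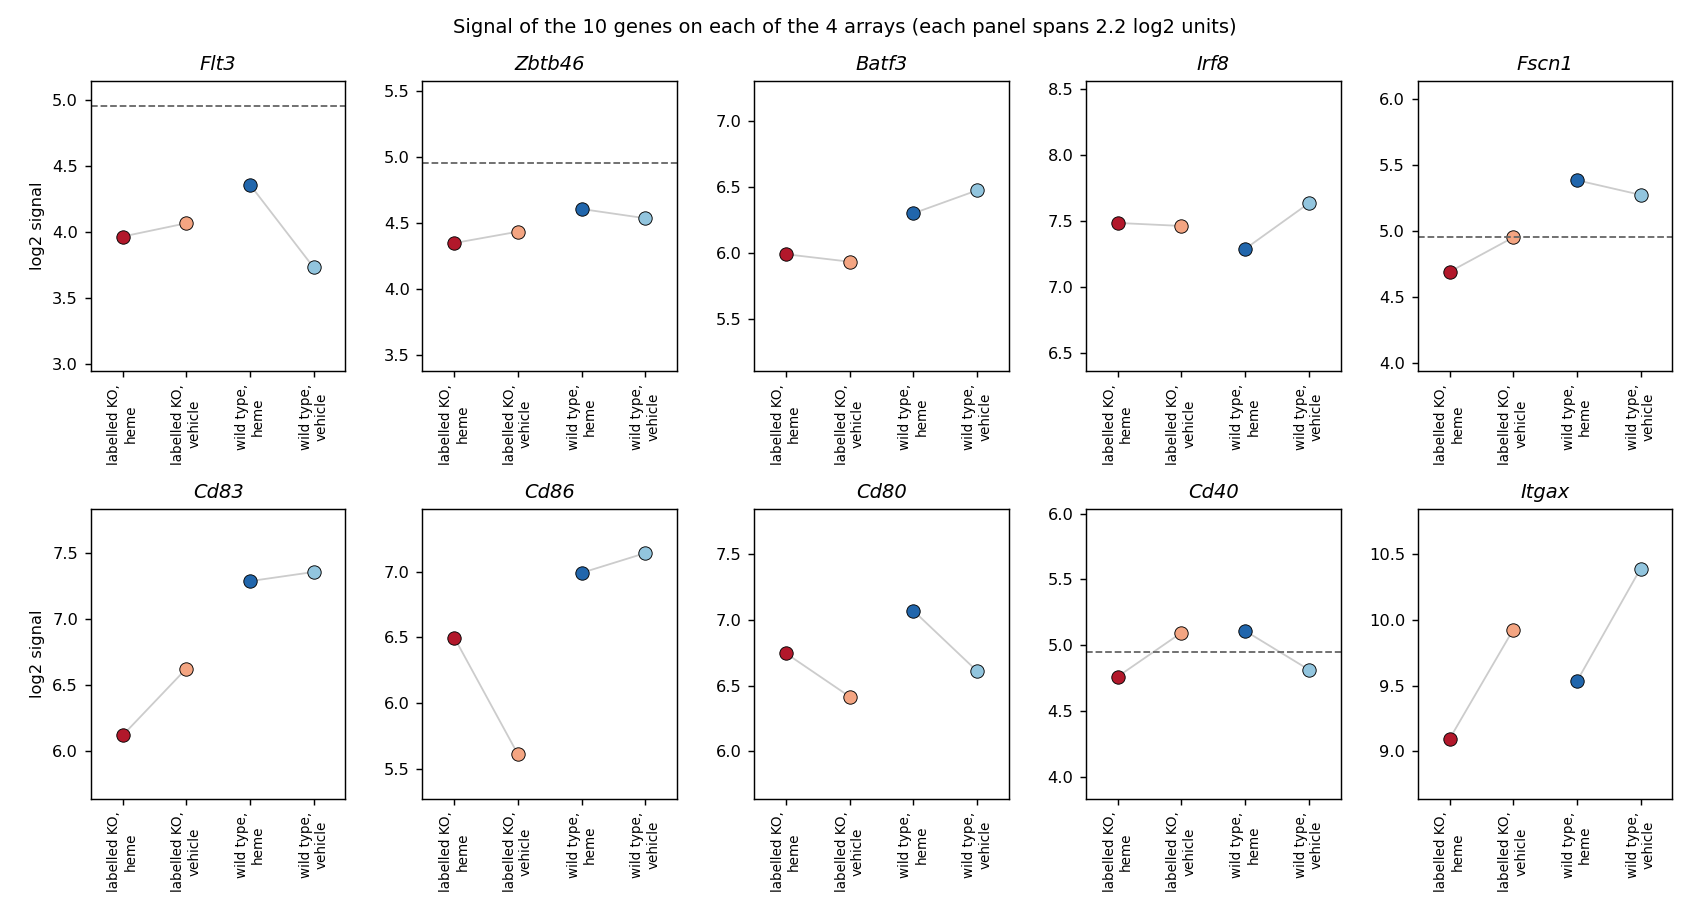
Log2 signal of each of the 10 genes on the 4 arrays, 1 point per array, with a line joining the heme and vehicle arrays of a genotype and the dashed line at the level filter (log2 4.95). Every panel covers the same height, so that the spread can be compared between panels, and Cd86 has its lowest point on the labelled knockout vehicle array.

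Counted over the 10 genes, heme against vehicle gave 0 genes 2-fold higher and 0 lower in the labelled knockout, where 1.2% and 0.452% of 10843 genes at level were. In wild type heme also gave 0 higher and 0 lower, where 1.17% and 0.891% of 10772 genes were. Labelled knockout against wild type gave 0 higher and 1 lower (Cd83) with heme, where 0.519% and 0.973% of 10790 genes were, and 0 higher and 1 lower (Cd86) in vehicle, where 0.525% and 1.14% of 10859 genes were. At 1.5-fold the heme counts were 1 higher (Cd86) and 1 lower (Itgax) in the labelled knockout, against 5.03% and 3.07% of genes, and 0 higher and 1 lower (Itgax) in wild type, against 4.99% and 4.73%. The genotype counts at 1.5-fold were 0 higher and 2 lower with heme (Fscn1 and Cd83), against 3.38% and 3.43%, and 0 higher and 2 lower in vehicle (Cd83 and Cd86), against 3.25% and 4.31%.

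By sign alone, 9 of the 10 genes were lower in the labelled knockout with heme, where 47.9% of all genes at level were, and 8 of 10 in vehicle, where 52.5% were. The exceptions were Irf8 with heme, and Flt3 and Cd40 in vehicle. These counts include Flt3 and Zbtb46, which were below level on every array, while the shares cover genes at level only. The median difference of the 10 genes was -0.37 with heme and -0.26 in vehicle, beside 0.01 and -0.02 over all genes at level. Over the 8 of them at level the median was -0.39 in both. For heme against vehicle the labelled knockout had 4 of the 10 genes higher and 6 lower (median -0.09), and wild type 5 higher and 5 lower (median 0.00).

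**Figure D2:**
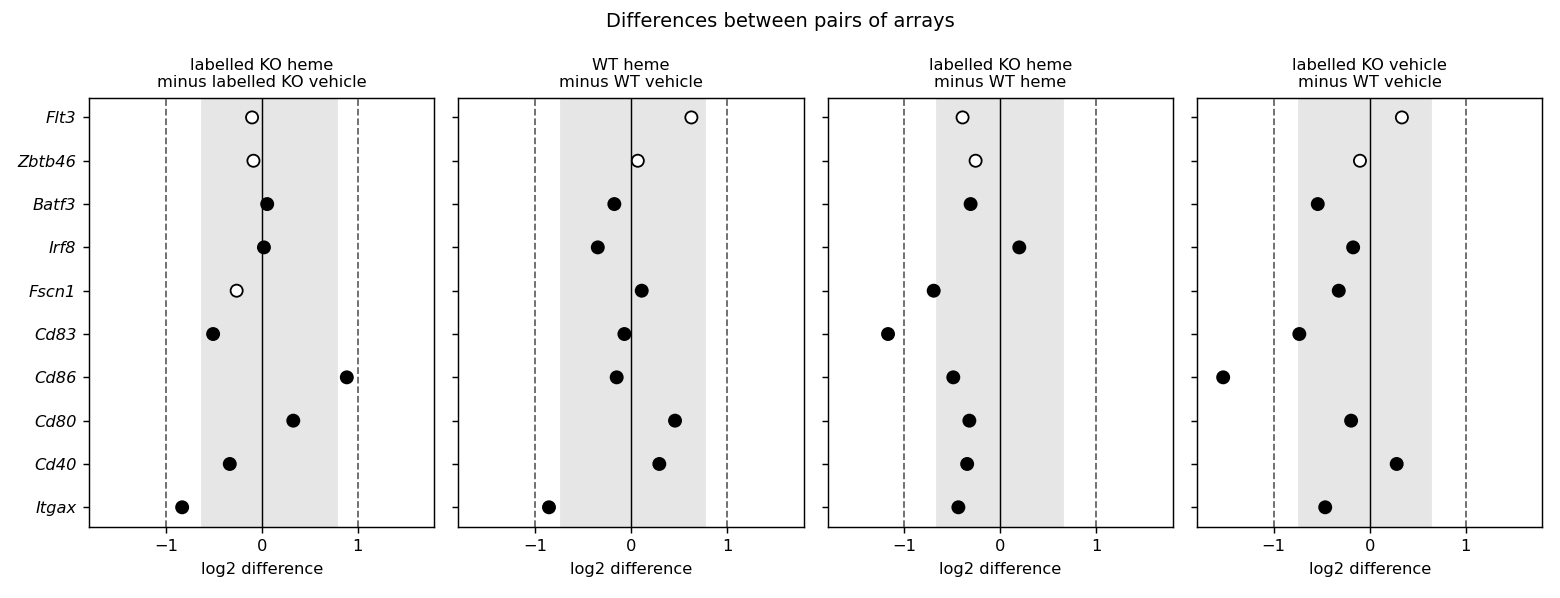
Log2 difference of each gene in the 4 comparisons, filled where the gene was at level and open where it was not, with dashed lines at 2-fold and a grey band for the central 95% of all genes at level. Itgax lies below the band in both heme comparisons, and Cd86 (vehicle) and Cd83 (heme) pass the 2-fold line in the genotype comparisons.

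Among the lineage genes, Flt3 read 15.6 and 16.7 in the labelled knockout with heme and vehicle, and 20.5 and 13.3 in wild type with heme and vehicle. Zbtb46, a zinc finger factor that marks classical dendritic cells, read 20.3 and 21.6 in the labelled knockout and 24.3 and 23.2 in wild type, in the same order. Both genes lay under the level filter on every array, so the RNA did not show these 2 defining markers above the middle of the array's signal range. The files hold no detection call, and whether either signal differs from background is unknown.

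Batf3, needed for the cross-presenting class of dendritic cell, was at level throughout, with 63.7 and 61.2 in the labelled knockout with heme and vehicle, and 78.9 and 89.1 in wild type. Both arrays labelled knockout were lower than both wild-type arrays. The genotype difference was -0.31 with heme and -0.54 in vehicle, the second at percentile 5.06 of all genes at level in that comparison, and heme moved the signal by no more than 0.17 in size in either genotype. Irf8, which directs progenitors toward dendritic cell and monocyte fates, read 179 and 176 in the labelled knockout with heme and vehicle, against 156 and 199 in wild type. The wild-type arrays enclosed those labelled knockout, and no Irf8 difference reached 0.35 in size.

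Itgax, the alpha chain of the CD11c/CD18 integrin, showed the largest heme differences that had the same direction in both genotypes. It read 547 with heme against 972 with vehicle in the labelled knockout, and 741 with heme against 1340 with vehicle in wild type. Both heme arrays lay below both vehicle arrays. The differences were -0.83 in the labelled knockout, at percentile 0.904 of genes at level, and -0.86 in wild type, at percentile 1.45, and they differed from each other by 0.03. Within each treatment the labelled knockout was also the lower, by -0.44 with heme and -0.46 in vehicle, so the labelled knockout heme array was the dimmest and the wild-type vehicle array the brightest. The beta chain gene Itgb2, whose product pairs with CD11c, read 2313 and 2812 in the labelled knockout with heme and vehicle and 2079 and 2476 in wild type, differences of -0.28 and -0.25 with heme. Itgam, which encodes the CD11b alpha chain, differed by 0.22 and -0.02.

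The costimulatory gene Cd80 moved the other way under heme. It read 107 with heme against 85.3 with vehicle in the labelled knockout, and 134 with heme against 97.6 with vehicle in wild type, differences of 0.33 and 0.46. Itgax and Cd80 were the members at level with a heme difference over 0.3 in size and the same sign in both genotypes, and their promoter windows are shown for that reason. Each covers 250 bases before to 50 after the start of the gene in RefSeq's GRCm38.p6, 5′ to 3′ on the plus strand, Itgax at chr7:128129300-128129599 and Cd80 at chr16:38458683-38458982, and capitals mark a match.
Itgax: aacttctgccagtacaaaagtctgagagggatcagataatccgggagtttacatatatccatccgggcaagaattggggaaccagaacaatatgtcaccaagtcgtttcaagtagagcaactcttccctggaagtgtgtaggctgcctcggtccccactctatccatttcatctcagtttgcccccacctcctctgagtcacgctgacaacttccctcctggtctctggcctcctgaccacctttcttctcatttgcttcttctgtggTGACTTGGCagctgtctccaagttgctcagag
Cd80: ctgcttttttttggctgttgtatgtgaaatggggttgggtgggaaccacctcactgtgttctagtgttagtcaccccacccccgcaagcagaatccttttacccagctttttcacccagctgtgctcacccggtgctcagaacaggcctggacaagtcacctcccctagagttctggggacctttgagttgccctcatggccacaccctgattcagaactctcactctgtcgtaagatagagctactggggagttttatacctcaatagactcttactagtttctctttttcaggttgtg

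The windows were searched on both strands for the letters GGAANTTCC and GGGANNTCC (NF-kB), TGANTCAGC and TGACNNNGC (the element bound by Maf, NRF2 and Bach proteins), GAAANNGAA (interferon response) and GAGGAAG (PU.1), which can overlap one another. The Itgax window held 1 match, TGACTTGGC on the plus strand, beginning 18 bases after the first transcribed base, and the Cd80 window held 0. Letters of the form TGACNNNGC stood in 12.4% of all 32851 windows of this length, so a match is common. Of the 7 members with a window in the RefSeq promoter table, Irf8 had a match of the same form in 1 of its windows and Batf3 a PU.1 match, a form that stood in 13.6% of all windows. A match describes letters alone.

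Cd80 had a second, almost equally bright probe set, and both are given because they differ. The less bright one carries 12 sequence records including the RefSeq mRNA, and the brighter one carries 2 records without it. The less bright one read 107 and 67.2 in the labelled knockout with heme and vehicle, and 144 and 105 in wild type. Its heme difference was 0.67 in the labelled knockout and 0.45 in wild type, and its genotype difference in vehicle was -0.65, against -0.19 for the brighter probe set. Both probe sets placed Cd80 higher with heme in each genotype and lower in the labelled knockout under each treatment.

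Fscn1, the gene of the actin-bundling protein of mature dendritic cells, read 25.8 and 30.9 in the labelled knockout with heme and vehicle, under level on both arrays, and 41.8 and 38.7 in wild type. The genotype difference was -0.70 with heme, at percentile 2.17, and -0.32 in vehicle. With 32 added to each signal the first became -0.35.

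Cd83 encodes a surface protein that keeps MHC class II and CD86 molecules at the surface of mature cells. It read 69.4 and 98.6 in the labelled knockout with heme and vehicle, and 156 and 164 in wild type with heme and vehicle. Both arrays labelled knockout were lower than both wild-type arrays. The genotype difference was -1.17 with heme, at percentile 0.621 of genes at level, and -0.73 in vehicle, at percentile 2.5. Heme was accompanied by a lower signal in the labelled knockout (-0.51, percentile 4.63) and by a difference of -0.07 in wild type. With 32 added to each signal the difference with heme was -0.89 and no longer reached 2-fold.

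Cd86, the B7 ligand that binds CD28 and CTLA-4 on T cells together with Cd80's product, had the widest range of the 10 genes. It read 90.5 and 48.9 in the labelled knockout with heme and vehicle, against 127 and 141 in wild type. The 4 arrays did not overlap by genotype, and the labelled knockout vehicle array stood 0.89 below the next one. The genotype difference was -1.53 in vehicle, at percentile 0.405 of genes at level, and -0.49 with heme, at percentile 4.95. Heme was accompanied by a higher Cd86 signal in the labelled knockout (0.89, percentile 98.2) and a slightly lower one in wild type (-0.15). With 32 added to each signal, the vehicle difference was -1.10 and still exceeded 2-fold.

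Cd40, the receptor through which helper T cells license dendritic cells, lay close to the level filter everywhere. It read 27.2 and 34.2 in the labelled knockout with heme and vehicle, and 34.5 and 28.2 in wild type. The heme difference was -0.33 in the labelled knockout and 0.29 in wild type, and the genotypes overlapped.

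The difference between the 2 heme responses, labelled knockout minus wild type, uses all 4 arrays. It reached 2-fold at level for 1 of the 10 genes, Cd86 (1.04, percentile 99.0), where 2.04% of 11155 genes at level on any array reached it in either direction. Cd40 followed with -0.63, Cd83 with -0.44, Fscn1 and Irf8 with -0.37 and 0.37, Batf3 with 0.23, Cd80 with -0.13 and Itgax with 0.03. Flt3 had -0.73, but below level. With 32 added the Cd86 value was 0.72, with 16 added 0.85, and with the log2 ratio centred on level it was 0.996, each under the 2-fold line.

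**Figure D3:**
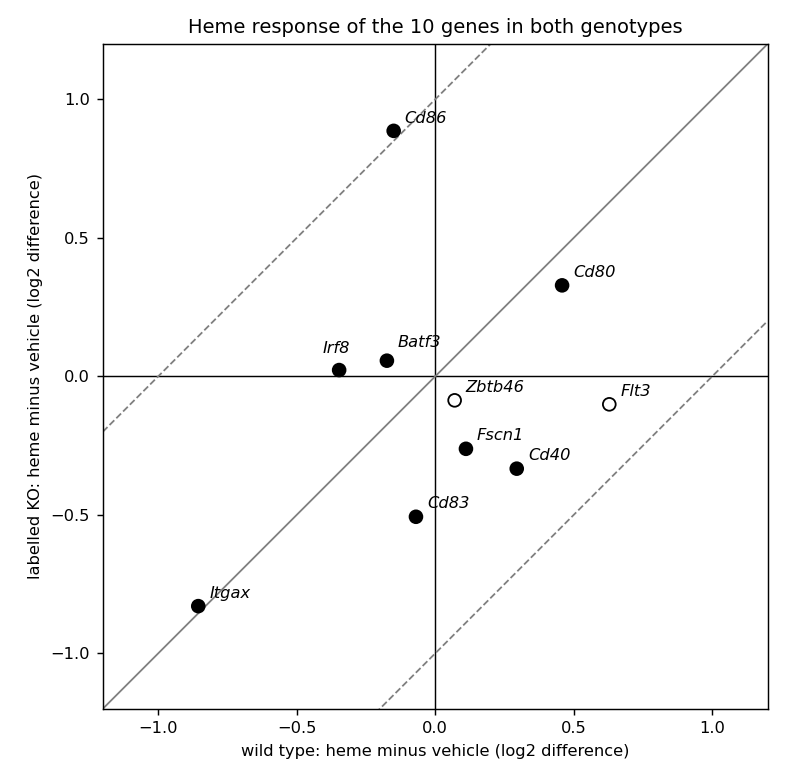
Heme response (log2 difference, heme minus vehicle) of each gene in the labelled knockout (vertical axis) against wild type (horizontal axis), with the line of equal response and dashed lines 2-fold from it; open points were below level on all 4 arrays. Itgax lies on the line of equal response with -0.83 in the labelled knockout and -0.86 in wild type, and Cd86 lies at the upper dashed line.

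Genes of similar pattern were sought for the 3 members at level whose log2 signals spanned 1 or more, by the Euclidean distance of 4 centred log2 signals among 638 candidate genes. The span was 1.53 for Cd86, 1.29 for Itgax and 1.24 for Cd83. Closest to Cd86 were Osgepl1 (distance 0.10), Faap24 (0.16) and the lectin gene Clec10a (0.26). Closest to Itgax were Ifi27l2a (0.04), Tnni2 (0.11) and Tent5c (0.13). Closest to Cd83 were Them4 (0.11), the chemokine gene Ccl4 (0.12) and Tmem176b (0.14). With 4 points per profile, these are descriptions of the arrays.

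The other genes around the members were taken from 10 lists, some sharing genes, and counted by the same rule. The share of all genes at level called lower in the labelled knockout was 0.973% with heme and 1.14% in vehicle. Called higher were 0.519% and 0.525%. For heme against vehicle, 1.2% were higher and 0.452% lower in the labelled knockout, and 1.17% and 0.891% in wild type. These shares also stand beside the counts of cell markers further below. Of 18 lineage transcription factors, 0 were called between genotypes, and the median was -0.10 with heme and -0.23 in vehicle. Irf4, needed for the other classical lineage, read 90.2 and 87.3 in the labelled knockout with heme and vehicle against 157 and 158 in wild type, differences of -0.80 and -0.86. Spib was called lower with heme in the labelled knockout (15.6 against 33.5 with vehicle), a call that rests on a vehicle signal just over the level filter and was lost with 16 or 32 added to each signal, with the filter at the 75th percentile and at 3-fold. Of 16 surface and subset genes of classical dendritic cells, 1 (Mgl2) was lower in the labelled knockout with heme and 3 (Cd24a, Clec10a and Mgl2) in vehicle, and 0 were higher. Those at level, and so open to a call, were 8 with heme and 9 in vehicle. Their median was 0.12 with heme and 0.13 in vehicle, above 0, while that of all 16 was -0.01 and -0.11. In vehicle 5 of the 9 at level were higher in the labelled knockout without reaching 2-fold, led by Ly75 (252 against 156 in wild type) and Clec9a. Clec9a, a marker of the Batf3-dependent class, read 101 and 161 in the labelled knockout with heme and vehicle against 83.1 and 101 in wild type, and another marker of that class, Xcr1, stayed between 11.3 and 12.7.

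Maturation and migration genes had 5 of 16 lower in the labelled knockout with heme (median -0.62) and 3 of 16 in vehicle (median -0.21), with 0 higher in either. Ccr7, the receptor that guides mature dendritic cells to lymph nodes, was among them in both: it read 44.6 and 35.2 in the labelled knockout with heme and vehicle against 119 and 90.7 in wild type. With 32 added to each signal both Ccr7 calls were lost. The others were Ccl17 and Ccl22 in both and, with heme, Socs2 and Ccl5. At level, and so open to a call, were 14 of the 16 under each treatment. Below 0 were 13 of 16 with heme and 12 in vehicle, against 47.9% and 52.5% of all genes at level. Cd200 went the other way without reaching 2-fold. It was higher in the labelled knockout with heme (87.0 against 53.4 in wild type) and in vehicle (172 against 88.5). Heme against vehicle gave 1 of 16 higher in the labelled knockout (Cd1d1, median 0.01) and 3 of 16 higher in wild type (Marcksl1, Birc3 and Cd1d1, median 0.30), with 0 lower in either. Cd1d1, which encodes a molecule that presents lipids, read 253 with heme against 96.7 with vehicle in the labelled knockout, and 208 against 86.1 in wild type. Between genotypes, all 6 MHC class II genes measured were called lower in the labelled knockout in vehicle (median -1.78). With heme 5 of 6 were called lower there (median -1.60), and all 6 lay below 0.

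Other costimulatory and coinhibitory ligands had 2 of 18 lower in the labelled knockout under each treatment and 0 higher. Of the 18, 14 were at level with heme and 13 in vehicle. Pdcd1lg2, the gene of PD-L2, read 90.9 and 52.4 in the labelled knockout with heme and vehicle against 199 and 153 in wild type, so the labelled knockout vehicle array was its lowest, as for Cd86. Tnfsf8 (CD30 ligand) was the second with heme (26.3 against 77.6) and Tnfsf9 (4-1BB ligand) the second in vehicle (20.6 against 42.3). Heme against vehicle gave 2 of 18 higher (Tnfsf4, Tnfsf9) and 1 lower (Tnfsf8) in the labelled knockout, and 1 higher (Tnfsf4) and 0 lower in wild type. Of the 3 calls in the labelled knockout, 1 (Tnfsf4) was left with 16 added to each signal, and 0 with 32 added, with the filter at the 75th percentile or at 3-fold. The genotype call of Tnfsf9 was lost with 16 added, and both Tnfsf8 and Pdcd1lg2 with heme were lost with 32 added. The inhibitory ligand gene Cd274 (PD-L1) differed by less than 2-fold in every comparison.

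In the list of FLT3 and GM-CSF receptor signalling, 12 of 15 genes lay below 0 in the labelled knockout with heme and 14 of 15 in vehicle, with medians of -0.25 and -0.39. Of all genes at level, 47.9% and 52.5% lay below 0. The kinase gene Jak2 read 175 and 132 in the labelled knockout with heme and vehicle against 485 and 454 in wild type, 2.77-fold and 3.43-fold lower. Cish, a feedback inhibitor induced by STAT5, read 108 and 122 against 402 and 280, and Socs2 was called lower with heme. The receptor chain genes Csf2ra and Csf2rb differed by at most 0.42 in size between genotypes. In the list of CD40 signalling, heme against vehicle gave 0 of 12 called in the labelled knockout (median 0.33) and 4 of 12 higher in wild type (Traf1, Tnfaip3, Nfkbia and Birc3, median 0.40). Of those 4, 1 (Birc3) was left with 16 or with 32 added to each signal, and 0 at 3-fold. Between genotypes 1 of 12 (Tnfaip3) was lower with heme, a call lost with 32 added, and 0 in vehicle, with medians of -0.58 and -0.42.

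**Figure D4:**
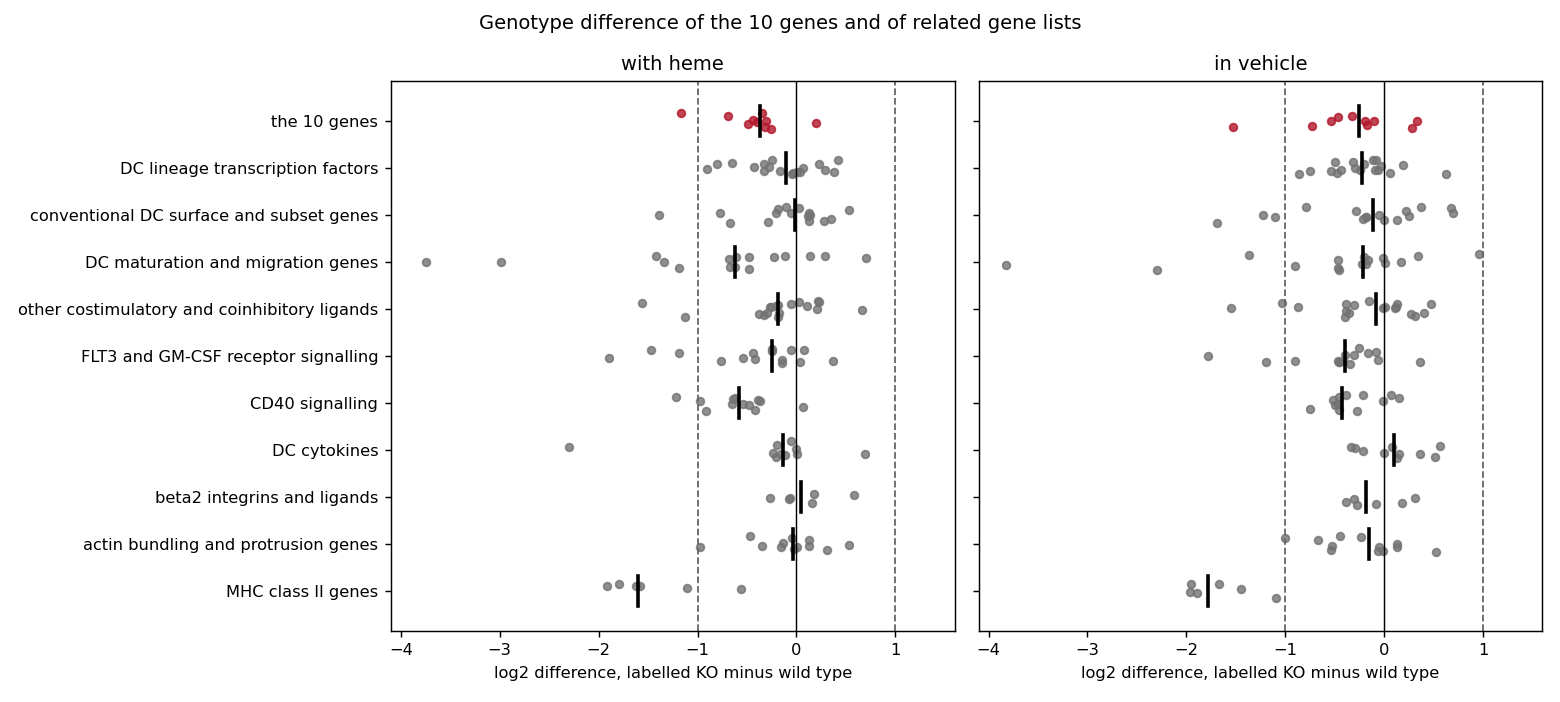
Log2 difference, labelled knockout minus wild type, of each gene of the 10 lists and of the 10 genes described here, with heme and in vehicle; black bars are list medians and dashed lines 2-fold. The median of the 10 genes lies at -0.37 and -0.26, and that of MHC class II genes at -1.60 and -1.78.

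Markers of other cells moved with some of these comparisons. All 11 macrophage markers measured were at level. In the labelled knockout 1 was called lower than in wild type with heme (C1qc) and 4 in vehicle (C1qa, C1qb, C1qc and Fcgr1). The same 4 were called lower with heme in wild type. The summed signal was 18854 and 19386 in the labelled knockout with heme and vehicle and 17702 and 19925 in wild type. Lyz2 and Cd68 made up most of that sum. For heme against vehicle, 10 of 11 single markers lay below 0 in wild type (median -0.61), where 51.3% of all genes at level did. In the labelled knockout 7 of 11 did (median -0.08), beside 47.5% of all genes at level. Summed neutrophil markers read 9706 and 7266 in the labelled knockout and 12411 and 9129 in wild type, higher with heme in both genotypes, with 0 of 10 called in the labelled knockout and 2 (Cxcr2 and Retnlg) higher in wild type. Most of that sum came from S100a8 and S100a9, and the single markers did not follow it between genotypes in vehicle: 3 of 10 lay below 0 (median 0.11), and Retnlg was called higher in the labelled knockout (133 against 51.7 in wild type). With heme 7 of 10 lay below 0 (median -0.21), and Cxcr2 was called lower (89.6 against 209). Both of these genotype calls, and that of Retnlg for heme in wild type, were lost with 32 added to each signal. Summed eosinophil markers read 534 and 616 against 1194 and 1001, and 2 of 4 (Prg2 and Epx) were lower in the labelled knockout with heme. Plasmacytoid dendritic cell markers had 0 of 6 called in any comparison, with Siglech under level throughout. The B cell (5), T and NK cell (6), mast cell and basophil (5) and progenitor (6) markers measured were all below level on every array. The part of these cells in the differences above was not tested.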

How the data were processed

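The deposited values were linear intensity for 35556 probe sets on 4 arrays, which the authors made with RMA, per the submitters' processing notes and the series' design text; its version and the summary level are not given in the sources used here. The labels state RNeasy RNA and cRNA from the Ovation PicoSL kit. The design text describes sorted GMP and MPP cells and another kit, and the sample labels were followed. Values were taken to log2 with no scaling added. Of the probe sets, 21789 carried a single symbol, updated by Entrez number to RefSeq's GRCm38.p6 gene table for 21698. A gene took the probe set with the highest mean log2 signal, which left 19938 genes. The depth of an array is its number: 1 per group limits all precision. Members and lists were chosen with earlier results of these data known.

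The text names all 10 members, list genes called in a comparison (at most 4 a list) or otherwise the most changed, Bach1, and 3 genes of similar pattern for each member spanning 1 log2 unit at level. Irf4, Clec9a, Ly75, Xcr1, Cd200, S100a8, S100a9, Itgb2, Itgam, Cd274, Csf2ra, Csf2rb and Siglech were named after their values were seen, as partners or markers. All called maturation genes are named. Of the list entries, 9 were not analysed here. The calling rule was run on simulated arrays with 4-fold changes placed only in genes well over the level filter. That run does not test differences near 2-fold or signals near the filter. Alternatives were fold rules of 1.5 and 3, no level filter or the 75th percentile (106), 16 or 32 added, quantile normalization again, lowess centring, the mean of probe sets and, chosen after seeing the data, the other Cd80 probe set. The tools were statsmodels 0.14.6 (lowess), pandas 2.3.3, matplotlib 3.10.9 and numpy 2.4.6 under Python 3.11.15.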

Additional observations from a re-analysis of the deposited data

Results flagged for a closer look

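Cd86 had heme responses of opposite sign in the genotypes, 0.89 in the labelled knockout and -0.15 in wild type, a difference of responses of 1.04 on the log2 scale. Each response rests on 2 arrays, and the difference was not tested. The signals were 90.5 with heme and 48.9 with vehicle in the labelled knockout, and 127 with heme and 141 with vehicle in wild type. The labelled knockout vehicle array enters the response and the genotype difference in vehicle alike, so both values share that 1 reading.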

How the results depend on the processing

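No paired analysis was possible because each group holds 1 array, and for the same reason no replicate could be left out. At 1.5-fold, the number of the 10 genes called was 1 in place of 0 for heme in wild type, 2 in place of 0 for heme in the labelled knockout, and 2 in place of 1 for the genotypes with heme, for the genotypes in vehicle and for the difference of heme responses. At 3-fold it was 0 in place of 1 for each of the last 3. With 32 added to each signal it was 0 in place of 1 for the genotypes with heme (Cd83) and for the difference of responses (Cd86). For the difference of responses it was also 0 with 16 added and with lowess centring. Without a level filter, with the filter at 106, with quantile normalization again, with a mean over the probe sets of each gene and with the other Cd80 probe set, all 5 counts stayed as reported. No called value changed sign. Of 300 recomputed values of single genes, 286 moved by less than the robust SD of their comparison and 14 by more. The mean of probe sets and the other Cd80 probe set could change Cd80 alone, because every other member had 1 probe set. Under those settings the values of the other members were the same by design, and they are counted among the 286. Of 648 recomputed list counts, 569 stayed within 1.5 times and 79 did not. Low signals limit Flt3, Zbtb46, Fscn1 and Cd40, whose distance from background is unknown.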

Other observations

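Of 10 dendritic cell cytokine genes, 1 (Il6) was called lower in the labelled knockout with heme (25.3 against 124 in wild type) and 0 in vehicle. Il6 was also called higher with heme in wild type (124 against 7.77 with vehicle), and in the labelled knockout it read 25.3 with heme against 6.15 with vehicle, both under level. Il12b, the p40 subunit shared by IL-12 and IL-23, read 30.3 and 35.4 in the labelled knockout with heme and vehicle, and 30.3 and 27.4 in wild type. Il18 was higher on both arrays labelled knockout, with 149 and 154 against 92.4 and 105. Of 6 integrin genes and ligands around Itgax, 0 were called in any comparison. The 2 with the largest differences were Icam2, which read 79.5 and 67.4 in the labelled knockout and 53.1 and 54.3 in wild type, and Icam1, which read 150 and 108 against 182 and 142. Among 12 genes of actin bundling and protrusion, the group to which Fscn1 belongs, Coro1a (coronin 1A) was called lower in the labelled knockout in vehicle (207 against 415), a call lost at 3-fold, with 16 or 32 added to each signal, with quantile normalization again and with lowess centring. The membrane linker gene Ezr was lower there under both treatments without reaching 2-fold, with 120 against 236 with heme and 140 against 223 in vehicle. Il12b, Il18 and Ezr were picked after their values were seen.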
